A study of Mus musculus with 16 samples.

Results

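The genes described here encode the collagens, the laminins, the integrins and 6 other proteins of the basement membrane or pericellular matrix (Nid1, Nid2, Agrn, Hspg2, Fn1 and Sparc). They were taken by symbol from the table of 35976 genes, as every collagen chain, laminin chain and integrin subunit listed there plus those 6, and came to 89 genes. Of these, 61 are matrix genes (44 collagens, 11 laminins and the 6 others) and 28 are receptor rows, 27 integrin subunits and Itgbl1, a secreted protein related to the beta subunits. The cells came from mouse neural tube organoids at day 4, grown from R1 mouse embryonic stem cells of the genotype FOXA2-Venus, a fluorescent reporter, and given retinoic acid (RA) for 18 hours in all libraries. FOXA2 is a transcription factor of the floor plate (the strip of cells along the bottom of the neural tube), and also of notochord and endoderm. The 16 libraries fall into 4 gates of FOXA2 expression (called negative, low, medium and high), 4 libraries to a gate, numbered 1 to 4. All gates thus share 1 line, 1 reporter and 1 treatment. How many cells, cultures or organoids went into a library, and whether the 4 libraries of a gate were separate cultures, is not given in the sources used here, so the spread that enters each p-value is the one between these libraries, and it may be technical.

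A basement membrane is a thin sheet of matrix on the basal side of an epithelium. Laminin trimers, each of an alpha, a beta and a gamma chain, form one network, type IV collagen trimers form another, and nidogens and the heparan sulfate proteoglycans perlecan and agrin connect them. Integrins are receptors of an alpha and a beta subunit that bind these proteins on the cell surface. In the neural tube the basement membrane surrounds the neuroepithelium, and laminin-binding integrins anchor the basal ends of its cells.

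Of the tested members, the 2 with the lowest adjusted p start from a shared site. Col4a1 and Col4a2, which encode the alpha1 and alpha2 chains of the commonest type IV collagen trimer, lie head to head on chromosome 8 (GRCm38; Col4a1 from 11198423 to 11312826 on the minus strand, Col4a2 from 11312805 to 11449287 on the plus strand). Their annotated first exons overlap by 22 bases, given in capitals in the plus strand of chr8:11312801-11312830 (reference sequence from RefSeq, GRCm38.p6):
Col4a1 and Col4a2 start sites: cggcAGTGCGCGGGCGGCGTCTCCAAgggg
The other members called higher in every gate above negative were Lamb1 and, less firmly in the low gate, Col9a2. For these the sequence before the first annotated exon is shown. The stretch above overlaps annotated exons and its capitals mark that overlap, so the motifs of the 3 stretches cannot be compared. Lamb1, the laminin beta1 chain, starts on chromosome 12 (31265234 to 31329644, plus strand), and the 191 bases before its first annotated exon are chr12:31265043-31265233, with CCAAT and CCGCCC, the reverse complement of GGGCGG, in capitals:
Lamb1: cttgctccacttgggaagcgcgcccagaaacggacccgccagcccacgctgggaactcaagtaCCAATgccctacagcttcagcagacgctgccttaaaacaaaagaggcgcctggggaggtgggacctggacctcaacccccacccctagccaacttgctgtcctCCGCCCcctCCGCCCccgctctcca
Col9a2, the alpha2 chain of the fibril-associated collagen IX, starts on chromosome 4, and the 69 bases before its first annotated exon are chr4:121039316-121039384, a stretch that holds none of the motifs searched:
Col9a2: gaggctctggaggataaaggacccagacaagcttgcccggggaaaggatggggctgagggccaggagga
Over the 250 bases upstream of a start, on both strands, GGGCGG was found in 33 of the 64 member genes with a promoter in the RefSeq table and in 32.7% of all 32851 promoters there, and CCAAT in 19 of 64 and in 33.8%. TATAAA was found in 5 of 64 members and in 12.4% of all promoters, and TGTTTAC, the core bound by forkhead factors such as FOXA2, in 1 of 64 and in 3.17%. In the same window GGGCGG occurred 2 times each for Lamb1, Col9a2 and Col4a2 and 0 times for Col4a1, and the stretch between the Col4a1 and Col4a2 starts shown above holds it as well. The window is set by the RefSeq start. For Lamb1 (31265293) and Col9a2 (121039566) this lies past the annotated start of the gene (31265234 and 121039385). The 2 matches of Col9a2 are therefore not within the 69 bases shown and reach into the annotated gene. The member figures count a gene if any of its promoters matched, while the percentages count single promoters, so they are unlike measures. These are matches of letters only.

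Library totals ran from 3268948 counts in the high gate to 9961032 in the negative gate, and 55 members were abundant enough to test (39 matrix, 16 receptor). Negative 3, low 1 and medium 2 had the highest scores on the third principal component of all tested genes (9.01% of the variance), at 18.2, 29.6 and 36.5. The summed level of 8 floor plate markers rose from 39.6–46.6 CPM (counts scaled by TMM to a common library size) in the negative libraries to 309–400 in the high ones, and without Foxa2, the gene of the gates, from 36.7–44.1 to 209–285. The sum of 7 neural progenitor markers went from 304–361 to 82.7–113 and that of 9 pluripotency markers from 613–1060 to 50.4–79.7. The progenitor genes Sox1 and Sox2 are listed at 0 in every library, while the other 5 progenitor markers were abundant enough to test. Whether the counting missed Sox1 and Sox2 was not tested, so their zeros are not read as absence. Over 17 endoderm markers the sum went from 152–190 to 491–521 CPM, with 5 of 10 tested markers higher (Sox17, Ttr, Cldn6, Epcam and Rbp4) and 0 lower, and Gata6, Sox7, Afp, Apoa1, Hnf4a, Cubn and Apob too low to test. Over 7 notochord markers it went from 182–208 to 375–490, with 5 of 5 tested markers higher and Noto at 0. Most of that sum came from the keratin genes Krt18, Krt8 and Krt19. Their means were 112, 69.7 and 7.16 CPM in negative and 269, 99.6 and 46.4 in high. T, Chrd and Shh had means of 0.48, 0.82 and 0.29 CPM in negative and 4.24, 7.07 and 1.34 in high. The 8 mesoderm and mesenchyme markers summed to 31–49.9 CPM in negative, 49–62.4 in low, 51.8–67.9 in medium and 32.3–48.6 in high. Of the 5 tested, 2 were higher in high against negative (Meox1 and Pdgfrb) and 1 lower (Tcf15). The 6 endothelial markers summed to 8.14–15.2 CPM in negative and 2.31–6.98 in high, with 2 of 3 tested lower and 0 higher. The part of these marker changes in the results below was not tested. In such bulk libraries a change in the number of cells of a type and a change in RNA per cell cannot be told apart.

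Matrix genes more often rose than fell from the negative to the high gate, and integrins were split. Of the 39 tested matrix genes, 11 rose and 1 fell in high against negative (adjusted p under 0.05 over all tested genes). The background was 8.42% of all 13891 tested genes called higher and 8.55% called lower. The matrix share was 28.2% higher and 2.56% lower, with a median log2 fold change of 0.22 against 0.00 over all tested genes. Among the 25 tested collagens 8 rose and 1 fell, and 2 of the 8 tested laminins rose. Of the 16 tested integrins 2 rose and 4 fell, a share of 12.5% and 25%, with a median of -0.07. The integrins that fell numbered 2 without negative 2, 3 or 4, 1 without high 2 or 3, and 0 without high 1. These 18 genes are the called points in the plot of log2 fold changes.

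**Figure D1:**
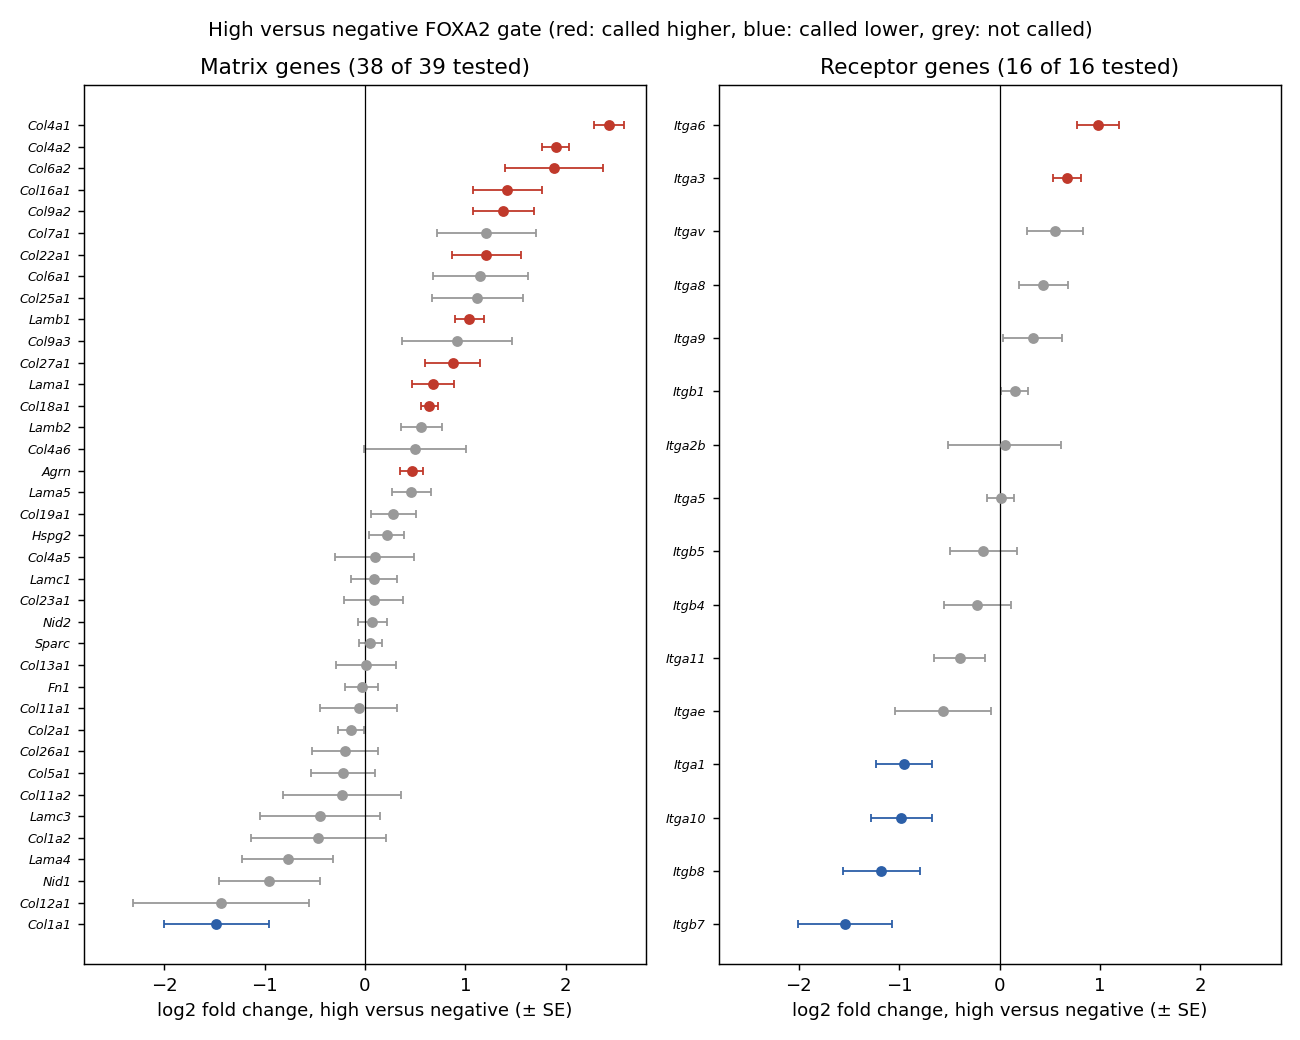
Log2 fold change of the high gate against the negative gate (x axis, ± SE) for 38 of the 39 tested matrix genes (left) and 16 tested integrins (right), ordered by size. Red points were called higher, blue points lower and grey points were not called; Col4a1 and Col4a2 lie farthest right, at 2.43 and 1.90.

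Both chains of the type IV trimer rose in high against negative. Col4a1 stood at 22.5, 18.9, 24.0 and 17.7 CPM in negative libraries 1 to 4, at 40.9, 59.2, 45.8 and 36.3 in low, at 78.1, 102.5, 86.5 and 73.6 in medium, and at 110.1, 119, 109 and 108 in high. Every library of a gate was above every library of the gate before it, so that no 2 gates overlapped. The mean went from 20.7 ± 2.96 to 111 ± 5.00 CPM (SD, n = 4), a log2 change of 2.43 (SE 0.15, adjusted p = 3.67e-13), or 5.39-fold.

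Col4a2, its partner chain, stood at 22.9, 22.3, 22.0 and 18.5 CPM in the negative libraries, at 39.15, 41.4, 42.0 and 33.1 in low, at 59.9, 69.7, 51.9 and 59.3 in medium, and at 87.1, 75.9, 82.7 and 73.5 in high. Its gates did not overlap either. The log2 fold change of high against negative was 1.90 (SE 0.13, adjusted p = 4.26e-12), or 3.74-fold, smaller than that of Col4a1. Without strand information given for the counting, reads from the 22 shared bases, or from Gm15419 on the other strand of Col4a2, cannot be assigned to 1 gene. Of the other type IV chains, Col4a5 and Col4a6, a second head to head pair on the X chromosome, were tested and not called, with log2 fold changes of 0.10 (SE 0.40) and 0.50 (SE 0.51). Col4a3 and Col4a4, the third such pair, had totals of 17 and 25 counts over all libraries and did not pass the filter on low counts.

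**Figure D2:**
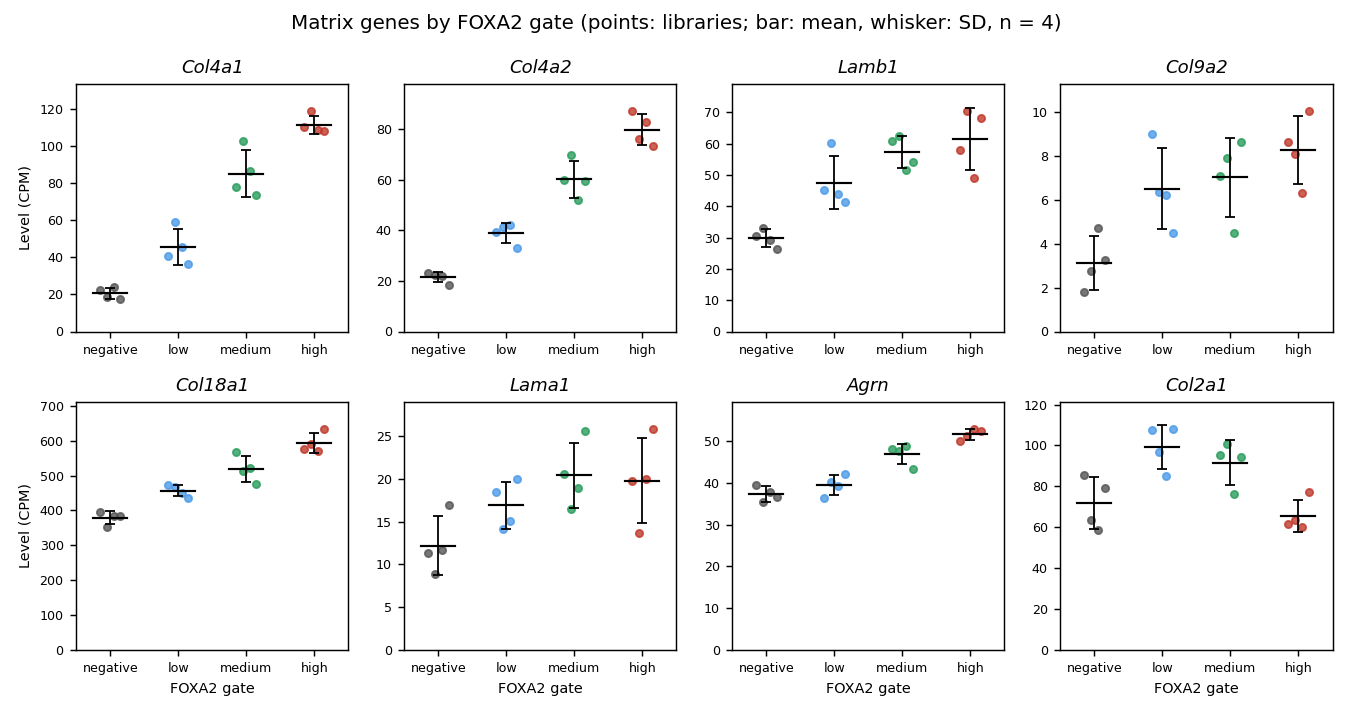
Level of 8 matrix genes (y axis, CPM, from 0) in each FOXA2 gate (x axis); points are libraries, the bar is the mean and the whisker the SD of 4 libraries. Col4a1 and Col4a2 step up from gate to gate without overlap, Lamb1 separates only the negative gate from the rest, and Col2a1 is highest in the low and medium gates.

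Among the laminin chains, the beta1 and alpha1 chains rose and the gamma1 chain they join in the early laminin trimer was not called. Lamb1 stood at 30.5, 33.1, 29.2 and 26.2 CPM in negative, at 45.1, 60.1, 43.8 and 41.4 in low, at 60.85, 62.5, 51.7 and 54.2 in medium, and at 57.9, 70.4, 49.2 and 68.3 in high. All 12 libraries of the low, medium and high gates were above the 4 negative ones, and the 3 upper gates overlapped each other. High against negative gave a log2 change of 1.04 (SE 0.14, adjusted p = 2.52e-06).

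Lama1, the alpha1 chain, stood at 11.3, 8.83, 11.6 and 16.95 CPM in negative, at 18.4, 14.1, 15.1 and 19.96 in low, at 20.6, 16.45, 19.0 and 25.6 in medium, and at 19.7, 13.6, 19.99 and 25.8 in high. Negative 4 was above high 2, so the gates overlapped. The log2 change of 0.67 (SE 0.21, adjusted p = 0.0242) was not called without negative 1, 2 or 3 or high 1, 3 or 4, each left out alone (adjusted p from 0.052 to 0.105).

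Lamc1, the gamma1 chain, stood at 10.0, 10.2, 14.0 and 8.68 CPM in negative, at 8.21, 17.4, 14.9 and 13.3 in low, at 11.4, 19.1, 16.4 and 11.7 in medium, and at 10.8, 11.6, 11.2 and 11.8 in high. The high libraries lay inside the negative range, and high against negative gave 0.09 (SE 0.23, adjusted p = 0.848). Lama5, the alpha5 chain, stood at 15.5, 15.9, 14.9 and 10.5 CPM in negative, 12.0, 13.7, 14.1 and 12.15 in low, 10.6, 19.1, 16.55 and 13.4 in medium, and 20.7, 23.7, 18.45 and 14.6 in high. Only high 4 lay within the negative range, but the difference of 0.46 (SE 0.20, adjusted p = 0.109) was not called. Lamb2, the beta2 chain, lay just outside the threshold, at 0.56 (SE 0.20, adjusted p = 0.0559). It was called higher with the replicate block, without the filter, in a fit of only the 2 gates, without low 1 and medium 2, and without negative 2, medium 2 or high 3. Lama4 and Lamc3 were not called (-0.77, SE 0.45 and -0.45, SE 0.60).

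Of the proteins that join or fill the basement membrane, agrin rose and the nidogens, perlecan, fibronectin and SPARC were not called. Agrn, the proteoglycan that binds laminin and dystroglycan, stood at 39.6, 35.3, 37.9 and 36.6 CPM in negative, at 36.5, 40.3, 39.3 and 42.2 in low, at 48.1, 47.7, 48.8 and 43.4 in medium, and at 50.1, 51.2, 52.9 and 52.5 in high. The negative and low libraries overlapped, and all medium and high libraries were above them. The log2 fold change of high against negative was 0.47 (SE 0.12, adjusted p = 0.00445). Hspg2, which encodes perlecan, stood at 24.4, 18.0, 16.5 and 15.9 CPM in negative, 18.6, 18.85, 19.0 and 16.9 in low, 21.8, 22.2, 15.5 and 14.0 in medium, and 22.4, 22.7, 19.99 and 21.9 in high. Negative 1 was above every high library, and the difference was 0.22 (SE 0.18, adjusted p = 0.459).

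Nid2, one of the 2 nidogens that link laminin to type IV collagen, stood at 37.3, 43.6, 38.8 and 35.6 CPM in negative, at 62.6, 56.7, 50.4 and 41.2 in low, at 44.4, 65.0, 47.6 and 48.4 in medium, and at 43.8, 35.6, 40.3 and 43.4 in high. The intermediate gates held the high values and the end gates overlapped (high against negative 0.07, SE 0.14, adjusted p = 0.803). Low against negative gave 0.44 (SE 0.14, adjusted p = 0.0811), called only without low 4 or without medium 2, each left out alone. Nid1 stood at 3.07, 2.08, 3.27 and 1.63 CPM in negative, 1.39, 2.82, 3.94 and 1.59 in low, 2.355, 0.658, 2.41 and 2.40 in medium, and 1.33, 0.757, 1.23 and 1.82 in high. All gates overlapped, and the difference of -0.95 (SE 0.50, adjusted p = 0.212) was not called. Nid2 shares exon bases with Rtraf on the other strand.

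Fn1, fibronectin, stood at 46.2, 44.15, 60.4 and 36.15 CPM in negative, 36.5, 46.85, 35.5 and 31.8 in low, 34.9, 47.2, 29.5 and 28.8 in medium, and 40.6, 46.2, 43.8 and 52.2 in high. The high libraries lay inside the negative range (-0.03, SE 0.16, adjusted p = 0.929). In medium against negative the difference was -0.41 (SE 0.16, adjusted p = 0.14), and it was called without medium 2, alone or together with low 1. Fn1 shares exon bases with Apol7d on the other strand. Sparc, which encodes a collagen-binding matricellular protein, stood at 96.9, 85.4, 96.4 and 75.9 CPM in negative, 97.9, 116, 101 and 95.2 in low, 99.7, 104, 101 and 88.55 in medium, and 85.1, 89.3, 88.1 and 106 in high. Its gates overlapped as well (0.05, SE 0.11, adjusted p = 0.817).

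Outside type IV, 6 more collagens rose in high against negative and 1 fell. Col18a1, the collagen XVIII chain of basement membranes that yields endostatin, stood at 396.5, 352.5, 385 and 385 CPM in negative, at 473, 467, 451 and 437 in low, at 568, 513, 521 and 476 in medium, and at 576.5, 591, 571 and 633 in high. Each gate lay above the one before it, without overlap. The change was the smallest among the collagens called, 0.64 (SE 0.09, adjusted p = 2.57e-06).

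Col9a2 stood at 1.78, 2.77, 4.72 and 3.27 CPM in negative, 8.97, 6.34, 6.195 and 4.485 in low, 7.07, 7.89, 4.48 and 8.615 in medium, and 8.62, 8.07, 6.30 and 10.0 in high. Every high library was above every negative one, and low 4 and medium 3 fell below negative 3. High against negative was 1.38 (SE 0.31, adjusted p = 0.00173). Col16a1, a fibril-associated collagen, stood at 2.10, 2.08, 2.00 and 2.14 CPM in negative, 2.905, 4.23, 2.25 and 3.62 in low, 7.07, 4.44, 5.86 and 2.68 in medium, and 7.13, 5.045, 5.23 and 4.86 in high. All 12 libraries of the low, medium and high gates were above the negative ones, and high was 2.68-fold above negative (SE of the log2 fold change 0.34, adjusted p = 0.00372).

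The other 3 collagens that rose each lost the call when some single library was left out, and Col6a2 had the fewest counts of them (225 over all libraries). Col6a2, a chain of the microfibril-forming collagen VI, stood at 0.485, 1.56, 1.63 and 1.123 CPM in negative, 1.26, 2.99, 1.55 and 2.17 in low, 0.785, 2.63, 3.10 and 2.40 in medium, and 4.31, 8.07, 2.92 and 2.43 in high. All high libraries were above the negative ones, and high 2 stood well above the other 3. The change of 1.88 (SE 0.49, adjusted p = 0.00702) became 1.45 (adjusted p = 0.0595) without high 2. Col6a1, its partner on the same strand, was higher by 1.15 (SE 0.48) with an adjusted p of 0.0984. Col22a1, a collagen of tissue junctions, stood at 3.72, 3.46, 1.09 and 2.86 CPM in negative, 5.305, 7.75, 5.35 and 4.05 in low, 3.53, 4.11, 4.65 and 7.77 in medium, and 8.29, 4.54, 6.30 and 6.68 in high. High and negative did not overlap (1.21, SE 0.34, adjusted p = 0.0138), and the call was lost without negative 3 (0.97, adjusted p = 0.0529) or high 1 (1.06, adjusted p = 0.0624). Col22a1 shares exon bases with Gm16308 on the other strand. Col27a1, a fibrillar collagen of cartilage, stood at 6.95, 5.02, 10.5 and 5.21 CPM in negative, 14.3, 9.51, 9.43 and 11.6 in low, 9.225, 13.2, 9.65 and 11.7 in medium, and 18.1, 6.05, 10.6 and 15.2 in high. High 2 lay within the negative range. Its change of 0.87 (SE 0.28, adjusted p = 0.0277) was not called without negative 1, 2 or 4 or high 1 or 4, and was 0.62 (adjusted p = 0.181) without high 1 (adjusted p from 0.0518 to 0.181).

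Col1a1, the alpha1 chain of fibrillar collagen I, was the matrix gene that fell. It stood at 3.23, 8.66, 2.18 and 3.37 CPM in negative, 2.65, 5.46, 2.11 and 2.604 in low, 1.178, 1.645, 0.172 and 2.40 in medium, and 1.82, 0.757, 2.31 and 0.911 in high. Negative 2 was far above the others, and negative 3 lay below high 3. The log2 change of -1.48 (SE 0.52, adjusted p = 0.0499) was at the threshold, became -0.94 (adjusted p = 0.297) without negative 2, and was not called without negative 1 or 4, low 1, 3 or 4, medium 1, or high 1, 2 or 4 (adjusted p from 0.0528 to 0.134). Its partner chain Col1a2 was not called (-0.46, SE 0.68). Col2a1, the chain of collagen II, found in cartilage and in the notochord sheath, had its high values in the middle gates. It stood at 85.5, 63.5, 58.8 and 79.0 CPM in negative, 107.5, 96.9, 85.0 and 108 in low, 95.4, 100.8, 76.0 and 94.3 in medium, and 61.7, 63.3, 60.3 and 77.1 in high. All low libraries were above all high ones, with a fall by 0.60 from low to high (SE 0.13, adjusted p = 0.0028), while high against negative was -0.14 (SE 0.13, adjusted p = 0.548). The rise from negative to low of 0.47 (SE 0.13, adjusted p = 0.0341) was lost without negative 2 or 3 or low 1, 2 or 4 (adjusted p from 0.0569 to 0.145).

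Of the integrins, Itga3 and Itga6 rose and 4 other subunits fell in high against negative. Itga7, a further laminin-binding alpha subunit, was too low to test, with summed counts of 39 in negative, 22 in low, 22 in medium and 14 in high. Itga3, which pairs with beta1 to bind laminin, stood at 38.1, 23.4, 34.3 and 37.9 CPM in negative, at 39.8, 31.5, 38.2 and 36.2 in low, at 50.25, 45.1, 48.1 and 40.7 in medium, and at 58.9, 52.5, 53.2 and 48.9 in high. Negative and low covered about the same range, and both medium and high lay above it. The change was 0.67 (SE 0.14, adjusted p = 0.000995).

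Itga6, the other main laminin-binding alpha subunit, stood at 15.0, 14.9, 18.5 and 14.9 CPM in negative, at 25.6, 16.4, 14.9 and 15.05 in low, at 13.9, 29.8, 16.4 and 16.4 in medium, and at 35.2, 24.97, 28.3 and 36.4 in high. High lay above negative without overlap, and low 1 and medium 2 reached the high range while the other 6 libraries of their gates did not. High against negative gave 0.98 (SE 0.21, adjusted p = 0.00139), and low against negative 0.19 (SE 0.21, adjusted p = 0.761). Negative 3, low 1 and medium 2, the highest Itga6 libraries of their gates, are also the 3 with the highest scores on the third principal component. The part of that component in the Itga6 values was not tested.

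**Figure D3:**
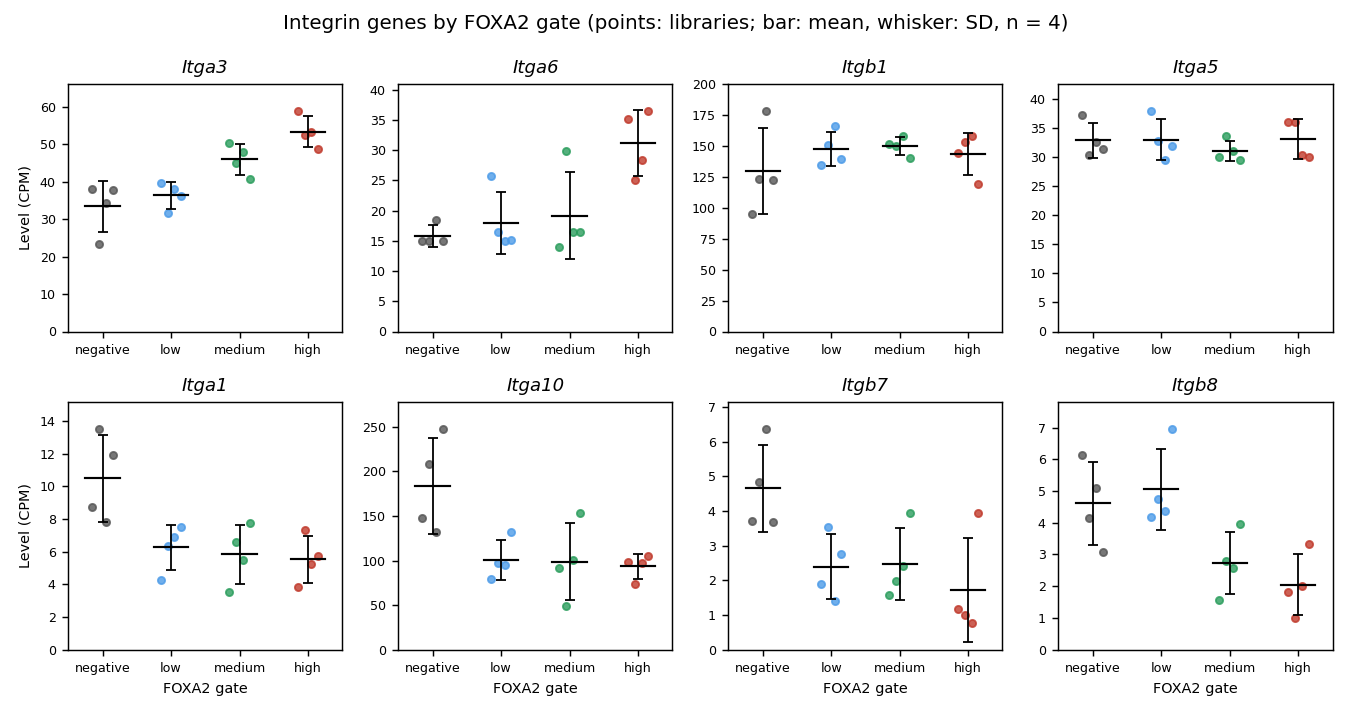
Level of 8 integrin genes (y axis, CPM, from 0) in each FOXA2 gate (x axis); points are libraries, the bar is the mean and the whisker the SD of 4 libraries. Itga6 is high in all 4 high libraries and in 1 library each of low and medium, while Itga1 and Itga10 are highest in the negative gate.

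Itgb1, the beta1 subunit shared by most of these receptors, stood at 95.5, 124, 178 and 122 CPM in negative, 135, 151, 166 and 139 in low, 152, 150, 158 and 140.1 in medium, and 145, 153, 158 and 119 in high. The negative libraries spanned the whole range, and the difference of 0.15 (SE 0.13, adjusted p = 0.515) was not called. Itga5, the alpha subunit of the fibronectin receptor, stood at 37.2, 30.3, 32.7 and 31.45 CPM in negative, 37.9, 32.8, 29.4 and 31.8 in low, 30.03, 33.55, 31.0 and 29.5 in medium, and 36.0, 36.1, 30.3 and 30.05 in high. The gates overlapped throughout (0.01, SE 0.13, adjusted p = 0.972).

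Itgav, the alphav subunit of the vitronectin-binding receptors, stood at 5.82, 8.83, 8.53 and 8.88 CPM in negative, 8.84, 8.10, 8.31 and 12.15 in low, 5.89, 21.5, 12.2 and 9.46 in medium, and 12.8, 10.85, 13.8 and 9.11 in high. High lay above negative by a small margin, and the difference of 0.55 (SE 0.28, adjusted p = 0.19) was not called. Itgb5, one of its beta partners, stood at 5.82, 6.06, 4.175 and 4.49 CPM in negative, 7.20, 13.7, 6.195 and 7.38 in low, 6.085, 14.5, 4.48 and 6.50 in medium, and 5.47, 4.04, 4.61 and 3.95 in high. Low 2 and medium 2 stood apart from the rest, and high against negative was -0.16 (SE 0.34, adjusted p = 0.812).

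The integrins that fell include the collagen-binding subunits alpha1 and alpha10. Itga1 stood at 8.72, 13.5, 7.805 and 11.95 CPM in negative, 4.29, 6.34, 6.90 and 7.52 in low, 3.53, 6.58, 5.52 and 7.77 in medium, and 3.81, 7.315, 5.23 and 5.77 in high. All 12 libraries of the low, medium and high gates were below the 4 negative ones, by a narrow margin. The change of -0.95 (SE 0.28, adjusted p = 0.0169) was lost without negative 2 (-0.82, adjusted p = 0.0691), negative 4 (-0.88, adjusted p = 0.0544) or high 1 (-0.80, adjusted p = 0.0798). Itga1 shares exon bases with Gm49395 on the same strand, so its counts are uncertain. Pelo, a gene within Itga1 on the same strand that shares no exon bases with it, is listed at 0 in every library. Whether reads of Pelo were counted as Itga1 was not tested.

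Itga10 stood at 148, 208, 132 and 247 CPM in negative, 79.4, 96.9, 94.8 and 132 in low, 92.05, 48.85, 101 and 153.5 in medium, and 97.85, 73.4, 97.0 and 106 in high. The high libraries were below all negative ones, and low 4 and medium 4 reached the negative range. The change of -0.98 (SE 0.30, adjusted p = 0.0411) was not called without negative 2 or 4, low 2 or 3, medium 1 or 3, or any 1 high library (adjusted p from 0.0544 to 0.116). Itga10 shares exon bases with Gm42957 on the same strand, so its counts are uncertain.

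Itgb7, a beta subunit best known from lymphocytes, stood at 3.72, 4.85, 6.35 and 3.68 CPM in negative, 1.89, 3.52, 1.41 and 2.75 in low, 1.57, 1.97, 2.41 and 3.95 in medium, and 1.16, 1.01, 0.769 and 3.95 in high. High 4 lay within the negative range and the other 3 high libraries far below it. The change of -1.54 (SE 0.47, adjusted p = 0.0209) was lost without negative 3 or high 1, 2 or 3 (adjusted p from 0.0658 to 0.0934). The 4 blood markers summed to 0–2.26 CPM in negative and 0–0.166 in high. Itgb8, which pairs with alphav and can activate latent TGF-beta, stood at 6.14, 4.155, 5.08 and 3.06 CPM in negative, 4.17, 4.76, 4.365 and 6.94 in low, 1.57, 2.80, 2.59 and 3.95 in medium, and 1.82, 1.01, 2.00 and 3.34 in high. High 4 lay above negative 4, and low was as high as negative. The changes of -1.18 against negative (SE 0.38, adjusted p = 0.0312) and -1.33 against low (SE 0.38, adjusted p = 0.0284) were each lost without high 1, 2 or 3 left out alone, the first also without negative 1 or 3 and the second without low 4 (adjusted p from 0.0644 to 0.117).

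The remaining tested integrins, Itga2b, Itga8, Itga9, Itga11, Itgae and Itgb4, were not called, with log2 fold changes of high against negative from -0.56 (Itgae, SE 0.48) to 0.44 (Itga8, SE 0.24). The remaining tested collagens were not called either, among them Col7a1 (1.21, SE 0.50, adjusted p = 0.0947) and Col25a1 (1.12, SE 0.46, adjusted p = 0.0933) with changes as large as some that were. Col12a1 had 0, 2, 0 and 4 counts in the high libraries, and its change of -1.43 (SE 0.88) was not called. The 34 members below the filter on low counts had at most 119 counts over all libraries (Col28a1), and 3 of them, Col10a1, Itgad and Itgb2l, had 0. They include Col3a1, Col5a2 and Col6a3, chains of fibrillar and microfibrillar collagens, and the integrin subunits of blood cells Itgal, Itgam, Itgax and Itgb2. With no filter, Col8a1, a short-chain collagen with summed counts of 1 in negative and 21 in high, was called higher in high against negative. Col6a5, a collagen VI chain with summed counts of 24 in negative and 0 in medium, was then called lower in medium against negative.

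Several of these matrix genes also differed from negative in the medium and low gates. In medium against negative 7 of 39 matrix genes rose and 1 fell, where 4.24% of all tested genes were higher and 4.22% lower, and 1 of 16 integrins rose, Itga3. No integrin fell in that comparison by edgeR, with 3 lower at an unadjusted p under 0.05 and 2 by DESeq2 (Itga1 and Itga10). Itga1 was called lower there without negative 3 or low 1, and Itga1 and Itga10 without medium 4. The 8 that rose, Col4a1, Col4a2, Lamb1, Col18a1, Col9a2, Col16a1, Lama1 and Itga3, were all called higher in high against negative too, and Col1a1 was lower in both. Both comparisons share the negative libraries. Col4a1 was higher in medium by 2.04 (SE 0.15, adjusted p = 5.45e-11), Col4a2 by 1.50 (SE 0.13, adjusted p = 1.34e-09) and Lamb1 by 0.95 (SE 0.14, adjusted p = 1.95e-05). Of the weaker calls, Itga3 (0.46) was lost without negative 2 or 3 or medium 1 or 3 (adjusted p from 0.0683 to 0.194), Lama1 (0.73) without negative 1, 2 or 3 or medium 4 (0.0564 to 0.109), Col9a2 (1.17) without negative 1 or medium 4 (0.0552 and 0.0516), and Col16a1 (1.24) without medium 1 or 3 (0.0799 and 0.0512). Col1a1 (-1.64, adjusted p = 0.0448) lost its call in 11 of the 16 fits that left out 1 library, those without negative 1, 2 or 4, low 3 or 4, medium 1, 2 or 3, or high 1, 3 or 4 (adjusted p from 0.0503 to 0.293).

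In low against negative 5 of 39 matrix genes rose, where 1.47% of all tested genes were higher and 2.29% lower. These were Col4a1 (1.14, SE 0.15, adjusted p = 4.8e-06), Col4a2 (0.87, SE 0.13, adjusted p = 6.53e-05), Lamb1 (0.68, SE 0.14, adjusted p = 0.00301), Col2a1 and Col9a2 (1.06, SE 0.30, adjusted p = 0.0447). Col9a2 was not called without negative 1, 2 or 4, low 1, 2 or 3, or high 1 (adjusted p from 0.0516 to 0.206), with the replicate block (1.05, adjusted p = 0.057), in a fit of only the 2 gates (1.06, adjusted p = 0.0792), after thinning (0.83, adjusted p = 0.361) or without low 1 and medium 2 (0.87, adjusted p = 0.17). By edgeR 0 matrix genes fell and 0 integrins changed, with 1 matrix gene lower, 2 integrins higher and 3 lower at an unadjusted p under 0.05, and 0 of any of these by DESeq2.

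Medium against low had 0.49% of all tested genes higher and 0.223% lower, and there Col4a1 (0.91, SE 0.14, adjusted p = 0.000289) and Col4a2 (0.63, SE 0.13, adjusted p = 0.0074) were the 2 matrix genes that rose. No matrix gene fell and no integrin changed by edgeR or DESeq2, with 1 matrix gene lower, 1 integrin higher and 1 lower at an unadjusted p under 0.05. The Col4a2 call was lost without low 4 (0.56, adjusted p = 0.0501). High against medium had 0.367% of tested genes higher and 0.547% lower and 0 members called by edgeR, with 7 matrix genes higher and 4 lower and 1 integrin each way at an unadjusted p under 0.05, and Col2a1 lower by DESeq2. The log2 differences there were 0.39 (SE 0.14, adjusted p = 0.267) for Col4a1, 0.41 (SE 0.12, adjusted p = 0.149) for Col4a2 and 0.70 (SE 0.21, adjusted p = 0.148) for Itga6. Without low 1 and medium 2, Col4a1, Col4a2 and Itga6 were called higher in high against medium, and only Col4a1 in medium against low. Leaving out medium 2 alone gave calls of Col4a2 and Itga6 in high against medium, and leaving out medium 3 alone a call of Col2a1. Medium 2 was the highest medium library for Col4a1, Col4a2 and Itga6 (102.5, 69.7 and 29.8 CPM), so leaving it out widens their differences of high against medium. Low 1 and medium 2 had the highest scores on the third principal component of these data, and negative 3, with the next highest, was kept. Both were also the highest Itga6 libraries of their gates. Fits without them are thus not an independent check of the Col4a1, Col4a2 and Itga6 differences.

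High against low had 3.79% of tested genes higher and 3.08% lower. Of the matrix genes 4 rose, Col4a1 (1.29), Col4a2 (1.04), Col18a1 (0.38) and Agrn (0.39), and Col2a1 fell. Of the integrins Itga6 (0.79, adjusted p = 0.0177) and Itga3 (0.55, adjusted p = 0.0128) rose and Itgb8 fell. Without medium 2 Itgb5 was called lower as well, and without high 4 Col12a1 was. Agrn (adjusted p = 0.0371) was not called without any 1 of the 4 low libraries, the 4 high libraries or medium 1 (adjusted p from 0.0508 to 0.108). Itga6 lost its call without low 2, 3 or 4 or high 1 or 4 (adjusted p from 0.0528 to 0.0753), and Itga3 without low 2 (0.0517) or high 1 (0.0645).

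Summed over all matrix members, levels rose from 907.7 ± 35.6 CPM in negative to 1118 ± 62.6 in low, 1250 ± 71.2 in medium and 1360 ± 63.2 in high (SD, n = 4). The summed receptor level was 484 ± 59.0, 420.5 ± 15.9, 426 ± 30.3 and 429.6 ± 18.9 CPM, and without Itga10 it was 299.9 ± 32.6, 319.7 ± 8.98, 327 ± 17.9 and 336 ± 16.5 CPM, lowest rather than highest in the negative gate. Without Col18a1, Col4a1 and Col4a2 the matrix sum was 486 ± 23.7, 576.5 ± 40.2, 586 ± 41.9 and 575 ± 40.8 CPM, with low, medium and high about level. Of the 39 tested matrix genes 9 (23.1%) had means that rose at each step from negative to high, where 12% of all tested genes did, and 20 (51.3%) were highest in the high gate, against 30.5% of all. The means of 2 of the 16 integrins (12.5%) rose at each step and those of 2 (12.5%) fell at each step, near the 12% and 11.4% of all tested genes. The heat map shows 29 named members library by library.

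**Figure D4:**
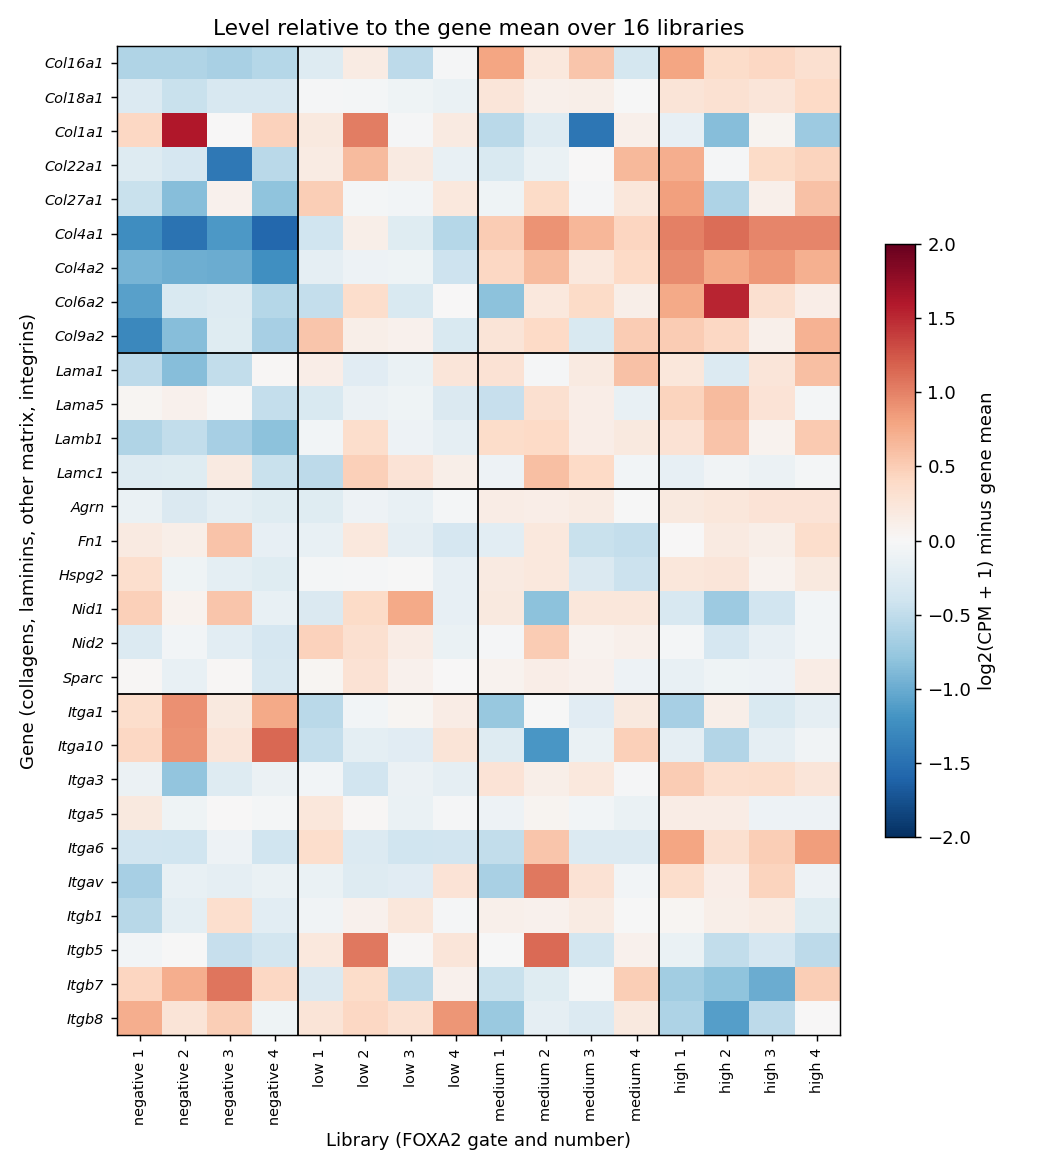
Level of 29 members (rows: collagens, laminins, other matrix proteins, integrins) in each of the 16 libraries (columns, ordered by FOXA2 gate), as log2(CPM + 1) minus the gene's mean over all libraries. Col4a1 and Col4a2 run from blue in the negative libraries to red in the high ones, and Itga1 and Itga10 are red in the negative libraries.

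Ratios of partner genes within a library do not depend on library size, and 8 pairs, chosen after the levels had been seen, were compared between high and negative. The log2 ratio of Col4a1 to Col4a2 went from -0.05 ± 0.15 in negative to 0.21 ± 0.21 in low, 0.50 ± 0.19 in medium and 0.48 ± 0.14 in high (SD, n = 4), a difference of 0.54 without overlap of negative and high (exact permutation test, two-sided, p = 0.0286, the smallest that 4 against 4 allows; adjusted p = 0.0572 over the 8 pairs). The ratio of Lamb1 to Lamc1 went from 1.48 ± 0.29 to 2.41 ± 0.20, that of Nid2 to Nid1 from 3.96 ± 0.47 to 4.93 ± 0.36, and that of Itga6 to Itgb1 from -3.00 ± 0.25 to -2.21 ± 0.41. In these 3 pairs too negative and high did not overlap (exact permutation p = 0.0286 and adjusted p = 0.0572 each). None of the 8 pairs passed after adjustment. With so few pairs at the smallest p possible, no pair could pass, however far apart its gates lay. Nid1 had 8, 3, 8 and 6 counts in high libraries 1 to 4, so the ratio of Nid2 to Nid1 rests on few counts. The differences for the other pairs were 0.52 for Itga3 to Itgb1 (exact permutation adjusted p = 0.152), -1.08 for Itga1 to Itgb1 (0.137), 0.23 for Agrn to Hspg2 (0.195) and 0.26 for Lama1 to Lama5 (0.571).

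**Figure D5:**
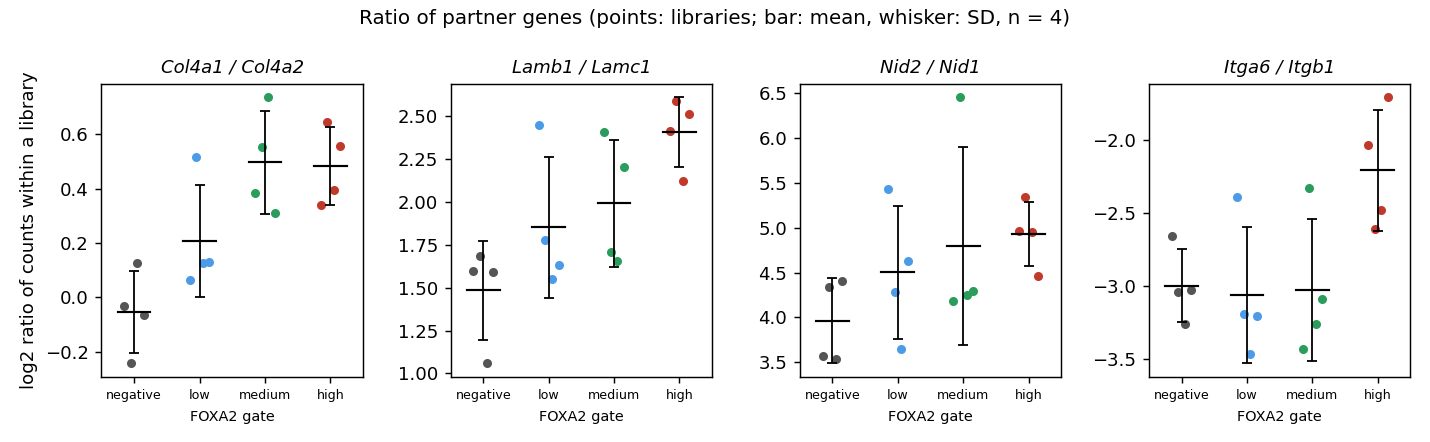
Log2 ratio of the counts of 2 partner genes within a library (y axis) in each FOXA2 gate (x axis), for 4 pairs; points are libraries, the bar is the mean and the whisker the SD of 4 libraries. In all 4 panels every high library lies above every negative one, while the low libraries overlap with both.

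Genes that make, bind or cut the matrix were counted from 5 lists. Of the 27 tested genes of collagen synthesis, processing and crosslinking 6 rose and 2 fell in high against negative, where 8.42% of all tested genes were higher and 8.55% lower, so that the number lower is near the background. Pxdn, the peroxidase that crosslinks type IV collagen, went from 44.0 ± 2.71 to 99.3 ± 1.99 CPM (SD, n = 4; log2 fold change 1.17, adjusted p = 5.29e-08), and Serpinh1, the collagen chaperone HSP47, from 129.6 ± 19.4 to 180.2 ± 23.4 (0.48, adjusted p = 0.00894). Bmp1, a procollagen C-proteinase, rose by 1.00 and Creb3l2, a transcription factor of secretory genes, by 1.25, while Adamts14, a procollagen N-proteinase, fell by 1.53 and Pcolce2, an enhancer of procollagen C-proteinase, by 0.76 on the log2 scale. The list's median was 0.24.

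Other matrix and matricellular proteins had 15 of 29 tested genes higher and 4 lower, with a median of 0.56 (background 8.42% and 8.55%). Smoc1 and Smoc2, SPARC-related proteins of basement membranes, rose by 1.95 (50.6 ± 3.91 to 196 ± 8.13 CPM) and 3.53 (4.09 ± 0.68 to 46.9 ± 6.67 CPM). Vtn, vitronectin, a ligand of alphav integrins, rose by 5.06, from 0.81 ± 0.36 to 25.7 ± 2.23 CPM, and Npnt, nephronectin, the ligand of alpha8 beta1 integrin, by 2.07. The 4 that fell were Sparcl1 (-1.28), Reln (-1.33), Spp1 (-1.24) and Matn3 (-0.86).

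Among 20 tested non-integrin receptors 4 rose and 1 fell, against the same background of 8.42% and 8.55%. Bcam, a receptor for laminin alpha5, rose by 1.00, Cd151, the tetraspanin that joins laminin-binding integrins, by 0.69, and the glypicans Gpc3 and Gpc2 by 1.63 and 0.70, while the collagen receptor Ddr1 fell by 0.50. Of 27 tested proteins on the cytoplasmic side of integrins 11 rose and 1 fell, with Tln2, a talin, from 54.35 ± 7.25 to 135 ± 11.0 CPM (1.31, adjusted p = 5.55e-10), Tns3, a tensin, by 1.69, Parva, a parvin, by 0.85 and Actn1, an actinin, by 0.88. Tns1, another tensin, fell by 1.56. Of 21 tested proteases and inhibitors 7 rose and 2 fell, the latter near the background of 8.55%, with Mmp11 higher by 1.67, Timp3 by 1.58, Plat by 1.37 and Hpse by 2.40, and with Timp1 lower by 0.92 and Mmp25 by 2.75. In low against negative the 5 lists had 2 of 27, 6 of 29, 2 of 20, 1 of 27 and 1 of 21 tested genes higher and 1, 1, 0, 0 and 0 lower, in the order given, where 1.47% of all tested genes were higher and 2.29% lower.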

How the data were processed

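BRB-seq, a bulk 3′ RNA-seq method, gave the 16 libraries, per the labels. The authors deposited raw counts per gene symbol; per the submitters' processing notes cutadapt 1.18, STARsolo 2.7.9a and DESeq2 1.42.0 were used with GRCm38. For the annotation, strand setting and use of molecular identifiers: not given in the sources used here. Because reads come from transcript ends, CPM were not compared between genes. Counts were tested here with edgeR 4.0.16 (R 4.3.3, limma 3.58.1; TMM factors 0.969–1.05, filterByExpr, quasi-likelihood test with robust estimation, gate as the only term, all 16 libraries), and p-values were adjusted by Benjamini-Hochberg over the 13891 tested genes of each comparison. A gene was called at an adjusted p under 0.05. SE is the log2 fold change divided by the root of F. CPM used TMM-scaled totals. Scripts were tested on simulated data. The smallest chi-square per degree of freedom between 2 libraries of a gate was 4.48 over 24 pairs, so none was a repeat of another. Values per library are given for each member called in high against negative and for 18 members named in the rule; Col2a1, called only in other comparisons, was added, and other lists name up to 4 genes a direction by adjusted p. Ratios used counts plus 0.5. Alternatives were RLE scaling, DESeq2, no filter, a block on library number, thinning to the smallest total, only the compared gates, and leaving out libraries. Positions are from GENCODE M21 on GRCm38. Members and lists were chosen with earlier results of these data known. The individual values of 1 tested matrix gene are not reported here.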

Additional observations from a re-analysis of the deposited data

Results flagged for a closer look

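Over the 29 members named in the results, 116 sets of 4 libraries were examined for a single library far from the other 3, and 9 had one. Chance alone gives about 1 in 20 such sets. Itga6 had one in 3 gates: negative 3 at 18.5 CPM against 14.9–15 in the others, low 1 at 25.6 against 14.9–16.4, and medium 2 at 29.8 against 13.9–16.4. Nid1 in medium 2 was at 0.658 CPM against 2.36–2.41. Col16a1 in high 1 was at 7.13 CPM against 4.86–5.23. Itgb7 in high 4 was at 3.95 CPM against 0.769–1.16. Low 2 held Col1a1 at 5.46 CPM against 2.11–2.65 and Itgb5 at 13.7 against 6.2–7.38. Itgav in negative 1 was at 5.82 CPM against 8.53–8.88.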

How the results depend on the processing

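Of 42 called gene results, 21 kept their call and none changed direction in any alternative, and of 966 values 122 lost the call; the calls of Col4a1, Col4a2, Lamb1, Col18a1, Col9a2, Col16a1, Agrn, Itga3 and Itga6 in high against negative held in all of them. The sample labels repeat the same library numbers in every gate, and the main fit did not pair libraries by number. Deviations of same-numbered libraries had correlations from -0.082 to 0.216, with a mean of 0.0427 and 6 of 24 pairs above 0.1. Pairs with different numbers had a mean of -0.014 and 3 of 72 above 0.1. Of the 16 libraries, 8 correlated best with their own number. Same-numbered libraries were thus more alike on average, and whether the numbers pair the samples was not tested. With the replicate block, matrix genes lower in high against negative went from 1 to 0, integrins lower in medium against negative from 0 to 2, integrins lower in low against negative from 0 to 1, and matrix genes lower in high against medium from 0 to 1. DESeq2 gave 2 matrix genes lower in high against negative, 2 integrins lower in medium against negative and 1 matrix gene lower in high against medium, and RLE scaling 1 integrin lower in medium against negative. Without the filter there were 2 matrix genes lower in each of high against negative, medium against negative and high against medium, and 1 integrin higher in high against medium. Thinning gave 2 integrins lower in high against negative, 0 matrix genes lower in medium against negative, 3 higher in low against negative and 1 lower in high against medium. A fit of only the 2 gates gave 2 matrix genes lower in high against negative, and 0 matrix genes lower and 0 integrins higher in medium against negative. Without low 1 and medium 2, matrix genes higher were 3 in low against negative, 1 in medium against low and 2 in high against medium, and integrins 1 higher in high against medium and 2 lower in high against low. Leaving out 1 library, matrix genes higher ranged from 8 to 12 in high against negative, 5 to 7 in medium against negative, 3 to 7 in low against negative, 1 to 2 in medium against low and 0 to 1 in high against medium. Matrix genes lower ranged from 0 to 2, 0 to 1, 0 to 1 and 1 to 2 in high against negative, medium against negative, high against medium and high against low. Integrins higher ranged from 0 to 1 in medium against negative and in high against medium and 0 to 2 in high against low, and integrins lower from 0 to 4 in high against negative and 0 to 2 in medium against negative and in high against low. Col9a2 lost its call after thinning in medium (0.86, adjusted p = 0.232) and low (0.83, adjusted p = 0.361) against negative. Among uncalled values near 0, thinning changed the sign of Itga5 (-0.13), Nid2 (-0.0229) and Fn1 (0.00561), and leaving out 1 library gave ranges of -0.0078 to 0.239 for Lamc1, -0.0348 to 0.0729 for Itga5, -0.143 to 0.113 for Fn1 and -0.0198 to 0.098 for Sparc; the log2 ratio of Lama1 to Lama5 ranged from -0.00816 (without high 4) to 0.568. The ratio alternatives were chosen after seeing the data. The causes of these changes were not tested. A total of 3 counts in a library corresponds to under 1 CPM, so members at 1 to 3 CPM rest on few counts.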
